A study of Mus musculus with 4 samples.

Results

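Chemokine receptors of leukocytes are the cell surface proteins by which white blood cells follow chemokines into tissue. The 9 receptor genes described here are Ccr1, Ccr2, Ccr7, Ccr9, Ccrl2, Cxcr3, Cxcr4, Cxcr6 and Cx3cr1. They were taken by gene symbol, with earlier results of these data known. All 9 are among the 17335 genes measured by RNA-seq in gonadal white adipose tissue (gWAT) of female mice. AD1KO mice carry floxed Dnmt1 alleles, with loxP sites on either side of exons 4 and 5, together with a Cre driven by the adiponectin promoter, which is active in adipocytes. Their fl/fl littermates carry the same floxed alleles without Cre. Mice of both genotypes were fed a high-fat diet (HFD) for 18 weeks. Equal amounts of RNA from 4 animals per genotype were pooled, so each group is 1 library and the spread between animals was not measured. Cre therefore removes Dnmt1 from adipocytes, whereas these receptors are known mainly from leukocytes, and the tissue was not sorted.

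Chemokine receptors span the membrane and signal through G proteins of the Gi class, which steer actin and the direction of crawling. Ccr1, Ccr2 and Cx3cr1 are best known from monocytes and macrophages, and Ccr2 brings monocytes into obese fat. Cxcr3 and Cxcr6 mark activated T cells and natural killer (NK) cells. Ccr7 guides T cells and mature dendritic cells to lymph nodes, Ccr9 guides lymphocytes to the gut, and Cxcr4 is carried by many blood cells and holds them in niches rich in its ligand. Ccrl2 is an atypical receptor that binds chemerin and presents it to neighbouring cells.

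Each level is given in FPKM, fragments scaled by transcript length and by the reads of the library, which allows genes of different length to be compared. The depth, estimated from the steps between low FPKM values, was 17690000 reads in fl/fl and 17520000 in AD1KO. Each difference is the log2 ratio of FPKM plus 0.01, AD1KO over fl/fl, and a gene counts as lower or higher when that ratio passes 0.5 in size. The 95% interval behind each value is exact and covers the counting of reads only. No p-value is given, because 1 library per group compares libraries and not animals. Dnmt1 itself was at 6.99 FPKM in fl/fl and 3.33 FPKM in AD1KO, a log2 ratio of -1.07 (interval -1.27 to -0.87), so the library labelled AD1KO held the lower level. The median log2 ratio was -0.04 over the 15839 genes that reached 0.1 FPKM in either library.

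Dnmt1 copies methylation at the dinucleotide CG. Promoter windows are shown for Cxcr3 and Cxcr6, the members that differed most. Those of Ccr2, the member with the highest level, and Cxcr4, the member richest in CG, are shown beside them. A link between CG in the windows and the receptor levels was not tested. The windows come from RefSeq on build GRCm38.p6, run 5′ to 3′ from 250 bases before to 50 bases after the start of the gene, and have each CG in capitals.
Cxcr3, chrX:101734098-101734397, minus strand: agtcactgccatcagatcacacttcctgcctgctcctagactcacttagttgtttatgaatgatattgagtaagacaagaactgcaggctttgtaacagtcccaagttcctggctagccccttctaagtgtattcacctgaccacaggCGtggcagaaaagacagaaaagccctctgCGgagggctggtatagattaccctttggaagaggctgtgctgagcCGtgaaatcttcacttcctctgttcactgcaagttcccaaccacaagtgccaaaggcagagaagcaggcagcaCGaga
Cxcr6, chr9:123806227-123806526, plus strand: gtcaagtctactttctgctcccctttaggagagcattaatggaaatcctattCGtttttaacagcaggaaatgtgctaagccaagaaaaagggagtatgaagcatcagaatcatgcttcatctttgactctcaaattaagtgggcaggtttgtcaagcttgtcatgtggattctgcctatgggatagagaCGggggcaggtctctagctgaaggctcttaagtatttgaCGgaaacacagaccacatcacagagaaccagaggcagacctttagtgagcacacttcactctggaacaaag
Ccr2, chr9:124101933-124102232, plus strand: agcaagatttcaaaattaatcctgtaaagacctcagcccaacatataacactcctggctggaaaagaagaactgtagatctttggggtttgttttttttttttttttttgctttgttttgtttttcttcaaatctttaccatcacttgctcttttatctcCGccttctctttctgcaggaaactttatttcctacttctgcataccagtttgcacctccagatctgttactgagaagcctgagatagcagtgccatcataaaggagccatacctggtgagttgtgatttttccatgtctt
Cxcr4, chr1:128592250-128592549, minus strand: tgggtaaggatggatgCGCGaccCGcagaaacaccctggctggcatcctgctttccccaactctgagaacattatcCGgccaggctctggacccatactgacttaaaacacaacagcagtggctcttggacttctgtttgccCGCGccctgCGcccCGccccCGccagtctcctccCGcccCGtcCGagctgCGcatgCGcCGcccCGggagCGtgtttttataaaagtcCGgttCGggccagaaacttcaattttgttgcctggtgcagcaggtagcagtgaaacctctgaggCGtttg
RefSeq windows were matched for 8 of the 9 receptors, 10 windows in all, and Ccr7 had no entry. The Cxcr3 window held 4 CG, the Cxcr6 window 3 and the Ccr2 window 1. The Ccr1 window also held 1, that of Ccr9 4, that of Cx3cr1 5 and the 3 windows of Ccrl2 6 to 8. The Cxcr4 window held 20, at or above which lay 26.5% of all 32851 windows of 27025 genes. The other members with a window had 8 or fewer, as did 54.2% of all windows, and the median window held 7.

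Binding motifs of 3 factors that act in leukocytes were searched on both strands of the same windows, and no searched motif contains another. The STAT motif TTCNNNGAA was in no window of these receptors and in 8.30% of all windows. The T-box motif AGGTGTGA was also in none of them and in 1.28% of all windows. The PU.1 motif GAGGAAGT was in the Cxcr3 window alone among the members and in 3.20% of all windows. A match describes letters in these windows, and methylation of the windows was not analysed here.

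Of the 9 receptor genes, 8 were lower in AD1KO, and none was higher. Their summed level was 59.7 FPKM in fl/fl and 30.1 FPKM in AD1KO, from 2482 and 1327 reads. The log2 ratios ran from -1.92 for Cxcr3 to -0.46 for Cx3cr1 with a median of -0.81, against the -0.04 of all genes. Of all 15839 genes, 19.1% were lower and 14.3% higher by the same rule. The whole counting interval lay at or below -0.5 for 4 receptors, Ccr2, Cxcr3, Cxcr4 and Cxcr6, and for 8.33% of all genes. It lay below 0 for 7 receptors and held 0 for Ccr9 and Cx3cr1. The study already reported, with a heat map of the same libraries, that chemotactic and pro-inflammatory genes were lower in AD1KO. The count is therefore not independent evidence of a direction. In whole tissue, fewer cells that carry a receptor and less receptor RNA per cell cannot be told apart.

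**Figure D1:**
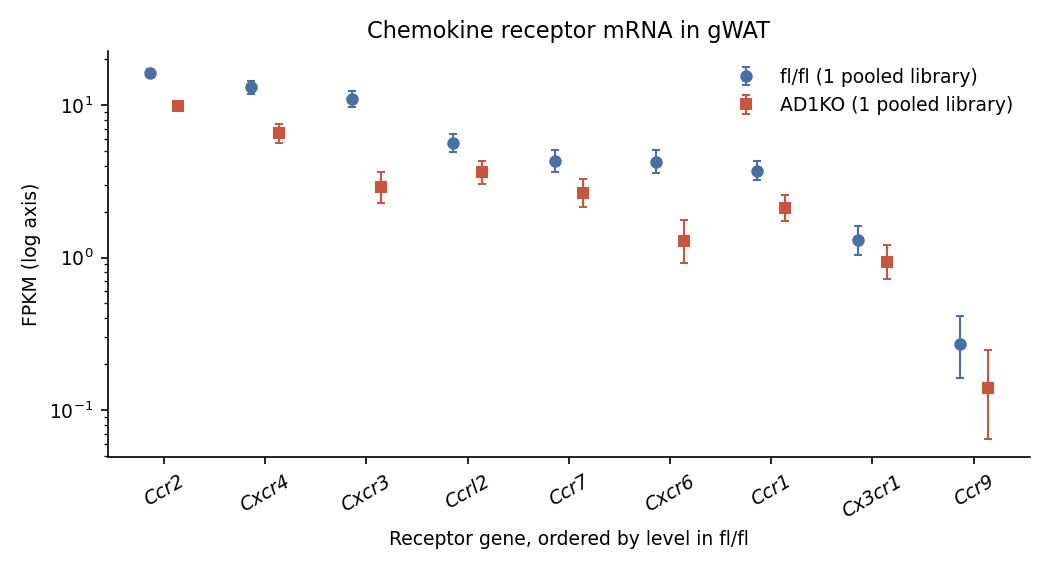
Level of each receptor gene in FPKM on a log axis, in the fl/fl library (circles) and the AD1KO library (squares), with exact 95% counting intervals as bars. Each AD1KO value lies under its fl/fl value, with the widest gaps at Cxcr3 (11.0 and 2.90 FPKM) and Cxcr6 (4.26 and 1.28 FPKM).

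Ccr2, the receptor of monocytes for Ccl2, had the highest level of the 9 in both libraries. Its gene lies on chromosome 9 of mm9 (chr9:124016689-124028296, plus strand). Ccr2 was at 16.2 FPKM in fl/fl (interval 15.2 to 17.2) and 9.88 FPKM in AD1KO (9.12 to 10.7). These levels rest on 1024 and 620 reads, the most of any member, and their intervals did not overlap. The log2 ratio was -0.71 (interval -0.86 to -0.56), so the AD1KO level was 61.1% of that in fl/fl. Of its 6439 stretches of 50 transcript bases, 1.86% also occur in another coding gene.

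Ccr1, a receptor of monocytes and neutrophils for several inflammatory CC chemokines, lies near Ccr2 (chr9:123876959-123883525, minus strand). It was at 3.72 FPKM in fl/fl (interval 3.20 to 4.32) and 2.12 FPKM in AD1KO (1.73 to 2.58). The log2 ratio was -0.81 (interval -1.18 to -0.45), from 179 and 101 reads. Cx3cr1, the fractalkine receptor of patrolling monocytes and resident macrophages, lies farther along the same chromosome from Ccr2 (chr9:119957811-119977400, minus strand). It was at 1.30 FPKM in fl/fl (interval 1.04 to 1.62) and 0.94 FPKM in AD1KO (0.72 to 1.21). Cx3cr1 was the member that did not pass 0.5, with a log2 ratio of -0.46 and an interval from -0.97 to 0.02. Its 84 and 60 reads do not separate the libraries at this depth.

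Cxcr3 and Cxcr6, the receptors of activated T cells and NK cells, stood lowest in AD1KO relative to fl/fl. Cxcr3 (chrX:98926874-98929608, minus strand) had 11.0 FPKM in fl/fl (interval 9.73 to 12.3) and 2.90 FPKM in AD1KO (2.29 to 3.64). The level was 3.78-fold lower in AD1KO, a log2 ratio of -1.92 (interval -2.30 to -1.54) from 289 and 76 reads. Cxcr6 (chr9:123715595-123720872, plus strand), which tissue-dwelling T cells also carry, was at 4.26 FPKM in fl/fl (interval 3.58 to 5.05) and 1.28 FPKM in AD1KO (0.92 to 1.75). The level was 3.33-fold lower, a log2 ratio of -1.73 (interval -2.28 to -1.21) from 134 and 40 reads. The Cxcr6 gene lies inside the span of Fyco1 on the opposite strand, without shared exonic bases.

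Of the homing receptors, Ccr7 (chr11:99005510-99016391, minus strand) had 4.28 FPKM in fl/fl (interval 3.61 to 5.06) and 2.67 FPKM in AD1KO (2.14 to 3.30). Its log2 ratio was -0.68 (interval -1.09 to -0.29), from 141 and 87 reads. Ccr9 (chr9:123587557-123691089, plus strand) was barely detected, at 0.27 FPKM in fl/fl and 0.14 FPKM in AD1KO. With a pseudocount of 1 FPKM in place of 0.01, the log2 ratio of Ccr9 was -0.16 and no longer counted as lower. Ccr9 had 20 and 10 reads, and its log2 ratio of -0.90 with 0.01 added has an interval from -2.24 to 0.18, and these few reads cannot show a difference. In the annotation 325 of 3217 exonic bases of Ccr9 overlap exons of other genes, Slc6a20a among them, and its reads are uncertain for that reason too.

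Cxcr4, the receptor for Cxcl12, lies on chromosome 1 (chr1:130484776-130488870, minus strand) and was the member with the second highest level. It was at 13.1 FPKM in fl/fl (interval 11.8 to 14.5) and 6.53 FPKM in AD1KO (5.66 to 7.53), from 394 and 195 reads. The AD1KO level was 49.8% of that in fl/fl, a log2 ratio of -1.003 (interval -1.26 to -0.75). Ccrl2 (chr9:110957339-110959774, minus strand), the atypical chemerin receptor, was at 5.65 FPKM in fl/fl (interval 4.93 to 6.46) and 3.63 FPKM in AD1KO (3.05 to 4.29). Its log2 ratio was -0.64 (interval -0.96 to -0.32), from 217 and 138 reads. Each of the Cxcr4 and Ccrl2 levels in AD1KO lay under the fl/fl interval.

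The order of the levels was similar at the top and differed in the middle. In fl/fl it ran Ccr2, Cxcr4, Cxcr3, Ccrl2, Ccr7, Cxcr6, Ccr1, Cx3cr1 and Ccr9. Neighbours in this order differed beyond counting error except Ccr7 from Cxcr6 and Cxcr6 from Ccr1. In AD1KO it ran Ccr2, Cxcr4, Ccrl2, Cxcr3, Ccr7, Ccr1, Cxcr6, Cx3cr1 and Ccr9. There Ccrl2, Cxcr3, Ccr7 and Ccr1 were not told apart from their neighbours among those 4, nor was Cxcr6 from Cx3cr1. Of the summed receptor level, Ccr2 made up 27.1% in fl/fl and 32.8% in AD1KO. Cxcr3 made up 18.4% and 9.64%, and Cxcr4 21.9% and 21.7%.

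Across the 36 pairs of receptors, the log2 ratios differed with an interval that left out 0 in 12 pairs. Each of those 12 held Cxcr3 or Cxcr6, out of 15 pairs that do, and among the other 21 pairs there was none. The log2 ratio of Cxcr3 was lower than that of Ccr2 by 1.20 (interval of Ccr2 minus Cxcr3, 0.80 to 1.61). The difference of Cxcr3 minus Cxcr4 was -0.91 (-1.37 to -0.46), and that of Cxcr3 minus Cx3cr1 was -1.44 (-2.07 to -0.81). Between Cxcr3 and Cxcr6 the difference was -0.18, and its interval from -0.84 to 0.49 held 0. These intervals are not adjusted for the number of pairs.

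**Figure D2:**
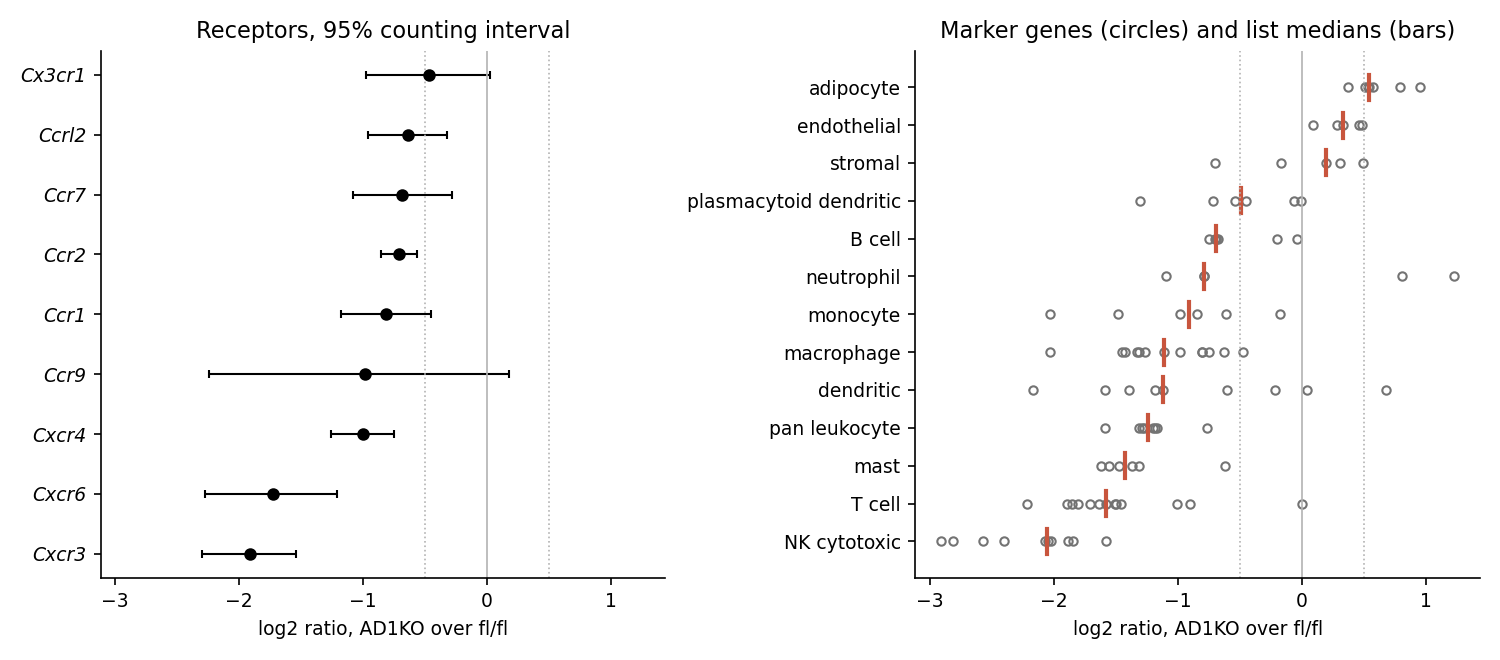
Log2 ratios of AD1KO over fl/fl for the 9 receptors (left, points with 95% counting intervals of the estimated reads) and for the genes of 13 marker lists (right, circles for genes and bars for list medians). Dotted lines mark 0.5 in each direction. Cxcr3 and Cxcr6 lie lowest among the receptors, and the NK and T cell medians (-2.05 and -1.58) lowest among the lists.

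Markers of leukocytes were lower in the same library, and the receptors are given beside them. The 8 pan-leukocyte genes were all lower, with a median log2 ratio of -1.24 and a summed level of 2624 FPKM in fl/fl and 1060 in AD1KO. Of 13 macrophage genes 12 were lower (median -1.11, summed level 7214 and 3140 FPKM), and of 6 monocyte genes 5 were lower (median -0.91, 146 and 69.0 FPKM). Of 13 T cell genes 12 were lower (median -1.58, 125 and 43.0 FPKM), as were all 10 NK and cytotoxic genes (median -2.05, 253 and 51.5 FPKM). All 6 mast cell genes were lower, with a median of -1.42. Of 9 dendritic cell genes 6 were lower and 1 higher (median -1.12), and of 6 plasmacytoid dendritic cell genes 3 were lower (median -0.49). Of 7 B cell genes 5 were lower (median -0.69), while among 5 neutrophil genes 3 were lower and 2 higher. Of 7 adipocyte genes 6 were higher (median 0.54, summed level 15914 and 24117 FPKM). None of 5 endothelial genes passed the threshold (median 0.34), and 1 of 5 stromal genes was lower (median 0.20). Every marker gene in the table was above 0 in both libraries. The part of cell numbers in the receptor levels was not tested.

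Relative to leukocyte RNA, the receptors fell on both sides. Ptprc, the CD45 gene of all leukocytes, was at 27.3 FPKM in fl/fl and 11.3 FPKM in AD1KO, a log2 ratio of -1.27. The 8 pan-leukocyte genes ran from -1.59 for Cd52 to -0.76 for Cytip. Values relative to Ptprc rest on that 1 gene, and their intervals cover the counting of reads only. Relative to Ptprc, 5 receptors stood higher in AD1KO with an interval above 0. They were Cx3cr1 with 0.80 (interval 0.29 to 1.31), Ccrl2 with 0.64 (0.30 to 0.97), Ccr7 with 0.59 (0.17 to 1.00), Ccr2 with 0.56 (0.38 to 0.75) and Ccr1 with 0.46 (0.08 to 0.84), each on the log2 scale. Of these, Ccr1 with its log2 ratio of -0.81 lay within the range of the pan-leukocyte genes. Cxcr3 alone stood lower than Ptprc with an interval below 0, at -0.64 (-1.04 to -0.25). The intervals of Cxcr6 (-0.46, from -1.01 to 0.08), Cxcr4 (0.27, upper end 0.55) and Ccr9 (0.29, from -0.98 to 1.46) held 0. As a share of the Ptprc level, Ccr2 was at 59.2% in fl/fl and 87.5% in AD1KO, and Cxcr3 at 40.2% and 25.7%. Minus the median of the T cell list, the log2 ratio was -0.34 for Cxcr3 and -0.15 for Cxcr6. The median of the NK and cytotoxic list, -2.05, lay below the log2 ratios of both. Minus the macrophage median, the log2 ratio was 0.40 for Ccr2 and 0.64 for Cx3cr1. The log2 ratios of Ccr2 (-0.71) and Cx3cr1 (-0.46) lay within the range of the monocyte list, from -2.03 to -0.18. That of Ccr2 also lay within the range of the macrophage list, from -2.03 to -0.48.

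**Figure D3:**
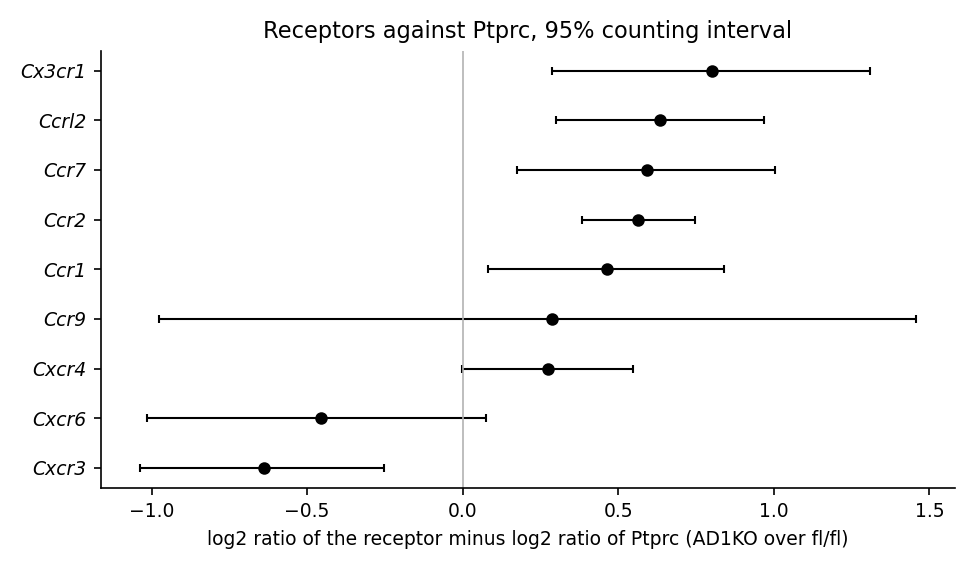
Log2 ratio of each receptor minus that of Ptprc, AD1KO over fl/fl, with 95% counting intervals from the estimated reads. Cx3cr1, Ccrl2, Ccr7, Ccr2 and Ccr1 lie right of 0, and Cxcr3 lies left of 0 at -0.64.

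The other chemokine receptors of the genome were counted by the same rule. Of 16 listed, 15 were in the table and 14 reached 0.1 FPKM, of which 9 were lower and 1 higher, with a median log2 ratio of -0.85. Xcr1, the receptor of cross-presenting dendritic cells, was at 1.88 FPKM in fl/fl and 0.50 FPKM in AD1KO (log2 ratio -1.89, interval -2.46 to -1.38). This ratio was close to those of Cxcr3 and Cxcr6. Ccr3, known from eosinophils, was at 0.80 and 0.31 FPKM (-1.34, interval -2.29 to -0.56). Ackr1, which endothelial cells carry, was at 6.51 and 4.43 FPKM (-0.55, interval -0.98 to -0.13). Ackr2, a scavenger of CC chemokines, was at 2.45 and 1.33 FPKM (-0.88, interval -1.34 to -0.44).

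Cxcr5, Cmklr1 and Ackr3 differed by less than 0.5 on the log2 scale, and Ackr4 differed in the other direction. Cxcr5, the follicle receptor of B cells, was at 3.34 FPKM in fl/fl and 3.24 FPKM in AD1KO (log2 ratio -0.04, interval -0.39 to 0.30). Cmklr1, the signalling receptor for chemerin that adipocytes also carry, was at 23.9 and 23.8 FPKM (-0.01, interval -0.12 to 0.11). Ackr3, a scavenger of Cxcl12, was at 24.8 and 20.6 FPKM (-0.27, interval -0.41 to -0.12). Ackr4, a scavenger of Ccl19, Ccl21 and Ccl25, was the only one of the 14 that was higher, at 1.02 and 2.35 FPKM (1.20, interval 0.62 to 1.80). Few reads were left for the rest. Ccr4, of helper and regulatory T cells, had 8 reads in fl/fl against 0 listed in AD1KO. The upper end of its interval was -0.76 on the log2 scale. Ccr6 had 5 and 2 reads, with a log2 ratio of reads of -1.31 and an interval from -4.70 to 1.30. Ccr8 had 3 and 1 reads, with a log2 ratio of reads of -1.57 and an interval from -7.29 to 2.07. Cxcr2, of neutrophils, had 16 and 9 reads and Ccr10 7 and 9, and both intervals held 0. Ccr1l1 was at 0.04 FPKM in each library.

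Other receptors that draw leukocytes were listed after their values had been seen, and 12 of 14 in the table reached 0.1 FPKM. Of these 7 were lower and none higher, with a median log2 ratio of -0.90. The complement receptor C3ar1 was at 50.7 FPKM in fl/fl and 22.7 FPKM in AD1KO (log2 ratio -1.16, interval -1.24 to -1.08). The formyl peptide receptor Fpr2 was at 6.06 and 1.49 FPKM (-2.02, interval -2.69 to -1.36). S1pr1, the sphingosine phosphate receptor that lymphocytes and endothelial cells share, was at 13.3 and 14.96 FPKM (0.17, interval 0.02 to 0.32).

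Among the ligands, 37 of 40 listed genes were in the table and 35 reached 0.1 FPKM, of which 23 were lower and 1 higher, with a median log2 ratio of -0.87. Among ligands with reads in both libraries, the lowest ratios were those of Cxcl9 and Cxcl10, the interferon-induced ligands of Cxcr3. Cxcl9 was at 146 FPKM in fl/fl and 12.4 FPKM in AD1KO (log2 ratio -3.56, interval -3.68 to -3.44). Cxcl10 was at 52.0 and 8.36 FPKM (-2.63, interval -2.89 to -2.38). Cxcl11 had 6 reads in fl/fl against 0 listed in AD1KO. Cxcl16, the membrane-bound ligand of Cxcr6, was at 47.2 and 20.2 FPKM (-1.23, interval -1.38 to -1.07).

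The ligands of the monocyte receptors were lower as well. Ccl2, the main ligand of Ccr2, was at 77.3 FPKM in fl/fl and 42.4 FPKM in AD1KO (log2 ratio -0.87, interval -1.02 to -0.71). Ccl7, which binds Ccr1 and Ccr2, was at 54.8 and 32.3 FPKM (-0.76, interval -0.94 to -0.59). Ccl12, a mouse ligand of Ccr2, was at 19 and 3.94 FPKM (-2.27, interval -2.90 to -1.68). Of the ligands of Ccr1, Ccl5 had the lowest ratio, at 189 and 36.0 FPKM (-2.40, interval -2.58 to -2.21), and the NK list holds it too. Ccl3 was at 12.6 and 3.24 FPKM (-1.95), Ccl6 at 645 and 261 FPKM (-1.31) and Ccl9 at 192 and 96.2 FPKM (-1.001). Ccl8, listed with Ccr1 although Ccr8 is its known receptor in mice, was at 557 and 130 FPKM (-2.10). Cx3cl1, or fractalkine, was at 2.70 and 1.56 FPKM (-0.79, interval -1.20 to -0.39).

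For Cxcr4 and Ccrl2, the ligand differed little between libraries while the receptor was lower. Cxcl12, made by stromal cells, was at 73.5 FPKM in fl/fl and 72.7 FPKM in AD1KO (log2 ratio -0.02, interval -0.09 to 0.06). Rarres2, the chemerin gene, which adipocytes express, was at 755 and 807 FPKM (0.10, interval 0.06 to 0.14). Ccl25, the ligand of Ccr9, was at 1.42 and 0.95 FPKM from 24 and 16 reads, and its interval held 0. The ligands of Ccr7 have near-identical gene copies whose reads cannot be assigned. Ccl19 was at 16.3 and 6.91 FPKM, and the 11 Ccl19 entries together had 524 and 251 reads (log2 ratio -1.05, interval -1.27 to -0.83). The Ccl21a entry, the 1 ligand counted as higher, is uncertain, since single entries of its family ran from -11.17 to 9.31. Summed over 8 entries, Ccl21 had 466 and 808 reads (0.81, interval 0.64 to 0.98).

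**Figure D4:**
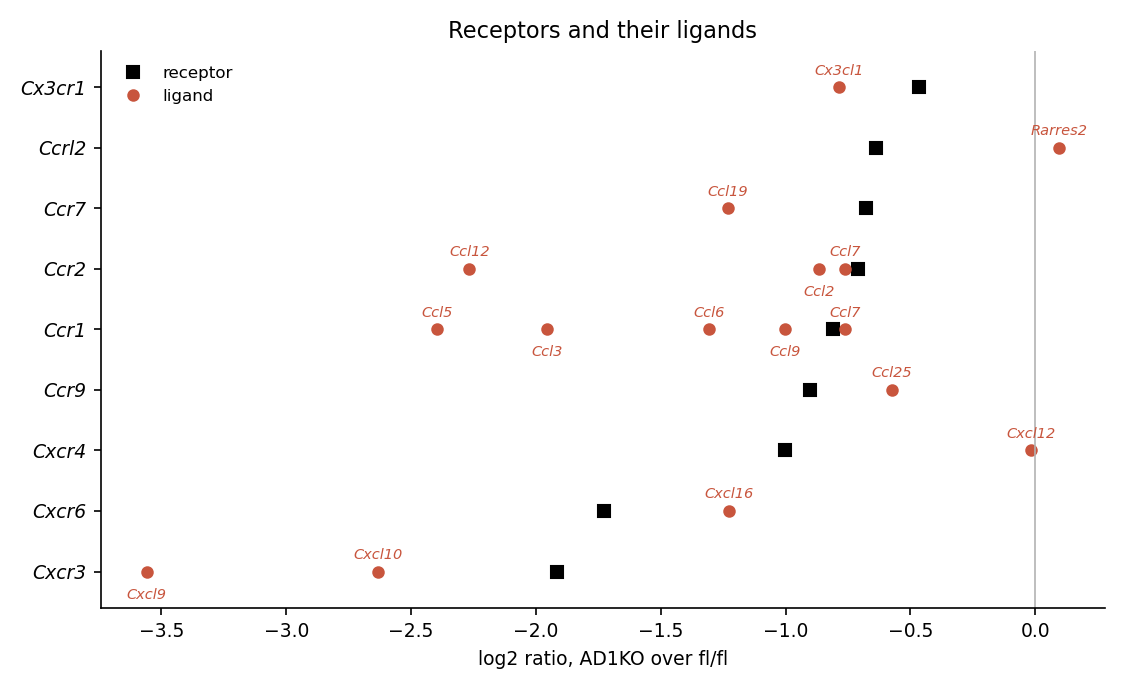
Log2 ratios of AD1KO over fl/fl for each receptor (squares) and its ligands (circles) in the same row. Cxcl11, listed at 0 in AD1KO, Ccl8 and the Ccl21 copies are not drawn. Ligands of Cxcr3 lie farthest left, and those of Cxcr4 and Ccrl2 near 0.

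Downstream of the receptors, 51 genes for G proteins, kinases, arrestins and actin control were measured. Of these 28 were lower and 1 higher, with a median log2 ratio of -0.65. Fgr and Rgs1 were the lowest. Fgr, a Src family kinase of myeloid cells, was at 5.59 FPKM in fl/fl and 1.76 FPKM in AD1KO (-1.66). Rgs1, which shortens Gi signals in lymphocytes, was at 55.2 and 18.2 FPKM (-1.60). The 3 highest were Gnai1, Grk5 and Crk. Gnai1, a Gi subunit found in many tissues, was at 49.1 and 88.1 FPKM (0.85), while the receptor kinase Grk5 (0.09) and the adaptor Crk (0.07) had intervals that held 0.

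In the genome, 4 of the members, Ccr9, Cxcr6, Ccr1 and Ccr2, lie within 440.7 kb of chromosome 9 (chr9:123587557-124028296, mm9). The annotation places 14 genes there, and 9 of them are in the table, 7 of which are chemokine receptors. In order along the chromosome the table holds Ccr9, Lztfl1, Fyco1, Cxcr6, Xcr1, Ccr1, Ccr1l1, Ccr3 and Ccr2. The 6 receptors among them that reached 0.1 FPKM were lower in AD1KO, though the interval of Ccr9, from 20 and 10 reads, held 0. Lztfl1, a ciliary transport gene, was at 3.24 FPKM in fl/fl and 3.21 FPKM in AD1KO (log2 ratio -0.01). Fyco1, a gene of vesicle transport whose span encloses Cxcr6, was at 4.73 and 6.30 FPKM (0.41), so neither was lower. The log2 ratios of the 6 receptors that reached 0.1 FPKM ran from -1.89 for Xcr1 to -0.71 for Ccr2.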

How the data were processed

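RNA of 4 female mice per genotype was pooled and sequenced as 1 poly(A) library on the BGISEQ-500 platform. Alignment to the mm9 build was done by the sequencing company that the authors used, and the aligner, the quantifier and the use of strand are not given in the sources used here. The authors deposited FPKM per gene, rounded to 0.01 and with 0 written as 0.01, which was set back to 0. The deposited table also holds fold changes, P-values and false discovery rates of the authors, which were not used. No test was run, since each group is 1 library.

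Genes with at least 0.1 FPKM in 1 library entered the counts, and log2 ratios were taken after adding 0.01. Low short genes lie on steps of whole reads, once the deposited length is shortened by 118 bases. Of 597 such genes in fl/fl 81.4% lay within 0.15 of a whole read, and of 596 in AD1KO 79.5%. The depth and the 118 bases were chosen for the best match to whole reads in such genes. These shares are therefore not a separate check. Reads per gene were estimated from these steps and are not counts given by the authors. The median gene had 573 reads over both libraries. Exact Clopper-Pearson intervals and Poisson intervals at 95% cover counting error only, and reads without molecular identifiers are not independent molecules. The steps were tested on simulated data that were built with steps of the same form.

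The members and lists were chosen with earlier results of these data known. Named genes were the members, the other receptors, the paired ligands, the 3 lowest and 3 highest signalling genes and the table genes of the chromosome 9 cluster. The other chemoattractant receptors named (C3ar1, Fpr2, S1pr1) were chosen after their values were seen. Some genes that this rule names are counted but not reported here. Positions are from GENCODE for mm9 and promoter windows from RefSeq on GRCm38.p6, and coordinates were not moved between builds. Alternatives were other scalings, pseudocounts, filters and thresholds. The bisulfite sequencing samples were not analysed here. The tools were pandas 2.3.3, SciPy 1.17.1, Matplotlib 3.10.9 and NumPy 2.4.6, run under Python 3.11.15.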

Additional observations from a re-analysis of the deposited data

How the results depend on the processing

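The log2 ratios of the 9 receptors were recomputed in 54 combinations of receptor and setting, and all 54 were under 0. In 1 case the value left its counting interval, Cxcr6 with a pseudocount of 1 FPKM at -1.21. Of 45 values relative to leukocyte RNA, with Ptprc, macrophage or T cell genes as reference or another pseudocount, none changed sign. The value of Cxcr6 came to -0.01 with a pseudocount of 1 FPKM. The NK and cytotoxic list was not used as a reference. Its median of -2.05 lay below the log2 ratios of Cxcr3 and Cxcr6. Scaling by trimmed mean of M-values, the upper quartile or the median of ratios subtracts -0.04, -0.09 and -0.04 from each log2 ratio. Of the 8 receptors counted as lower, a pseudocount of 1 FPKM left 7, as Ccr9 moved from -0.90 to -0.16. A threshold of 1 left 3, and asking for the whole counting interval (a rule chosen after seeing the data) left 4. Of all genes, 1661 were lower and 965 higher with a pseudocount of 1 FPKM, 1417 and 910 at a threshold of 1, and 1320 and 663 by the whole interval, against 3029 and 2265. With at least 1 FPKM in 1 library, 1281 were higher. Of the other receptors, 3 were lower with a pseudocount of 1 FPKM, 5 at a threshold of 1, 4 with at least 1 FPKM and 4 by the whole interval, against 9. Ligands counted as higher were 3 under each scaling and 2 with no filter, against 1. Signalling genes were 17 lower and 0 higher at a threshold of 1, against 28 and 1. Each of these settings moves the rule or the scale by which a gene is counted. No paired analysis was possible because each group is 1 pooled library, and no replicate could be left out. With 20 and 10 reads for Ccr9, and 84 and 60 for Cx3cr1, counting limits what these libraries show.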
